A study of Mus musculus with 8 samples.

Results

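The mammalian apparent LTR retrotransposons, or MaLR elements, were followed by name through the repeat tables of a Zscan4 knockdown and a Zscan4 overexpression in mouse embryonic stem (ES) cells. Members were all repeat names beginning with ORR1, with MTA to MTE, or with MLT1, and the MT2 names, which are LTRs of other elements, were left out. This gave 83 of 767 names in the knockdown table (28 ORR1, 19 MT and 36 MLT1) and 84 of 834 in the overexpression table, where MLT1 had 37. The 83 names of the knockdown table were all among the 763 names held by both tables. By part, 51 of the 83 were long terminal repeats (LTRs) and 32 were internal regions, which carry the suffix "-int".

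RNA came from J1 cells, a mouse ES line that the labels give as strain 12910la and wild type in genotype, in 8 libraries of 4 groups with 2 libraries each. KD control cells had received a pSuper puro vector with a random control, and KD Zscan4 cells the same vector with a short hairpin RNA against Zscan4. OE control cells had received a pCMV-tag2 control, and OE Zscan4 cells pCMV-tag2 with the coding sequence of Zscan4c. All cells were transfected with 1000 ng of plasmid and selected from 24 h on, the knockdown arm with 2 µg/ml puromycin for 7 days and the overexpression arm with 500 µg/ml G418 for 10 days, in 15% serum with 10 ng/ml LIF. Monoclonal cells were then picked in both arms, so each group may rest on 1 or a few clones. The labels do not say whether the libraries of a group were separate clones or cultures, and the p-values below measure only the spread between these libraries, which may be technical.

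MaLR elements are retrotransposons of the endogenous retrovirus class III that code for no reverse transcriptase of their own and have depended on relatives such as MERVL for copying. The MT and ORR1 families are rodent elements, with MTA and the ORR1A names as their youngest subfamilies, while MLT1 is an old family shared by placental mammals whose copies are fossils. In mouse oocytes and early embryos, LTRs of MT and ORR1 elements are known to serve as promoters and first exons of many chimeric transcripts, and MERVL with its LTR MT2_Mm does so in 2-cell embryos and in the rare 2-cell-like state of ES cell cultures in which Zscan4 is expressed.

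Values are the authors' normalised signal, which is reads summed over all copies of a name and divided by a factor of each library. Fold changes are differences in log2(value + 1) between a Zscan4 group and its control, which understates changes of names with few reads, and a name was called when limma's adjusted p (Benjamini-Hochberg, over all names of the table) was under 0.05. Each name pools copies across the genome, and reads inside genes count as repeat reads too, so a value does not say whether an element or a host transcript was read. The values are not per length, and levels of different names are not compared.

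Libraries held 17392177 to 22381633 reads in genes and 305226 to 470404 reads in repeat names, of which 21785 to 39509 were MaLR reads. Within groups, repeat reads varied 1.43 to 2.83 times as much as counting alone gives (chi-square per degree of freedom), so the libraries were not copies of each other. Zscan4c was at 575 and 566 in KD control and at 11.2 and 15.5 in KD Zscan4 (log2 fold change -5.33, limma adjusted p = 3.0e-09). In the overexpression arm it stood at 60.1 and 75.2 in OE control and at 1074 and 981 in OE Zscan4 (3.91, limma adjusted p = 6.3e-13), so both comparisons went in the direction of their labels. Zscan4 copies are near identical and the plasmid carries Zscan4c, so its reads may be shared among them. All 10 ES cell markers were measured in both arms. In the knockdown 4 rose and 3 fell (summed signal 129871 to 130013 in control and 129844 to 134829 in KD Zscan4), and in the overexpression 8 rose and 1 fell (106923 to 110076 against 149342 to 150580). The fibroblast markers Dcn and Lum were absent from both tables. Of 8 fibroblast markers, 6 were in the knockdown table (2 rose, none fell, summed signal 275 to 308 in control and 404 to 455 in KD Zscan4) and 5 in the overexpression table (3 fell, 832 to 844 against 335 to 363). Of 8 trophectoderm markers, 7 were measured in the knockdown (1 rose, 3 fell) and 6 in the overexpression (2 fell). Of 6 neural markers, 5 were measured in each (2 rose and 3 fell in the knockdown, 3 rose and 2 fell in the overexpression). Markers of primitive endoderm, a lineage that arises beside ES cells in culture, fell in 13 of 13 cases in the knockdown (summed signal 15756 to 16042 against 3514 to 3737) and in 9 of the 12 measured in the overexpression (4404 to 4600 against 3338 to 3445). Their part in the MaLR values was not tested.

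MaLR reads made up 7.03% and 7.14% of repeat reads in KD control, and 8.87% and 8.70% in KD Zscan4. In OE control the share was 9.29% and 9.11%, and in OE Zscan4 it was 8.28% and 8.40%. The groups did not overlap in either arm, and the share was higher with less Zscan4 and lower with more. The share of the internal regions of ETn, a retrotransposon of another class, moved the other way in the same libraries, from 28.9% and 28.4% to 16.8% and 18.4% in the knockdown and from 13.9% and 13.7% to 19.3% and 19.1% in the overexpression. The part of ETn in the MaLR share was not tested. Set against gene reads, MaLR elements gave 1287 and 1253 reads per 1000000 gene reads in KD control and 1404 and 1615 in KD Zscan4. In the overexpression arm OE control gave 1654 and 2156 and OE Zscan4 gave 1747 and 1765, so there both Zscan4 libraries lay between the controls. OE control replicate 2 was the high library here, and it was also high for old repeats of other classes (L2, L3, MIR, MER5, Tigger and Charlie names), with 1282 reads per 1000000 gene reads against 986 in OE control replicate 1.

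In the knockdown, 11 of 83 MaLR names rose and none fell, where 6.00% of all 767 repeat names rose and 2.87% fell. One name, ORR1A3-int, was negative at an unadjusted limma p under 0.05, and limma-voom called it as a fall among 16 called names. By family, 4 of 28 ORR1, 5 of 19 MT and 2 of 36 MLT1 names rose. Fold changes were positive for 71 of 83 MaLR names and for 594 of all 767 names. The 2 KD Zscan4 libraries were both above both controls for 49 MaLR names, against 48.2% of all names, and both below for 4, against 10.0%. The median log2 fold change was 0.30 over MaLR names, 0.26 over all names and 0.28 over the 65 old names of other classes, so the upward shift of MaLR names was close to that of the table as a whole.

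Young and old families shifted by like amounts in the knockdown. The median log2 fold change was 0.24 for ORR1, 0.35 for MT and 0.33 for MLT1, with quartiles of 0.16 and 0.36 for ORR1, 0.25 and 0.41 for MT, and 0.032 and 0.53 for MLT1. Within a library, where scaling cancels, the ratio of ORR1 reads to MLT1 reads was 2.93 and 3.13 in KD control and 2.97 and 3.10 in KD Zscan4, and the groups overlapped. The ratio of MT to MLT1 reads was 3.23 and 3.38 in KD control and 3.18 and 3.23 in KD Zscan4, a fold of 0.97 that did not keep its direction without the name with the most reads in each family (1.09). For LTRs the median was 0.34 over 51 names, and for internal regions 0.24 over 32 names.

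**Figure D1:**
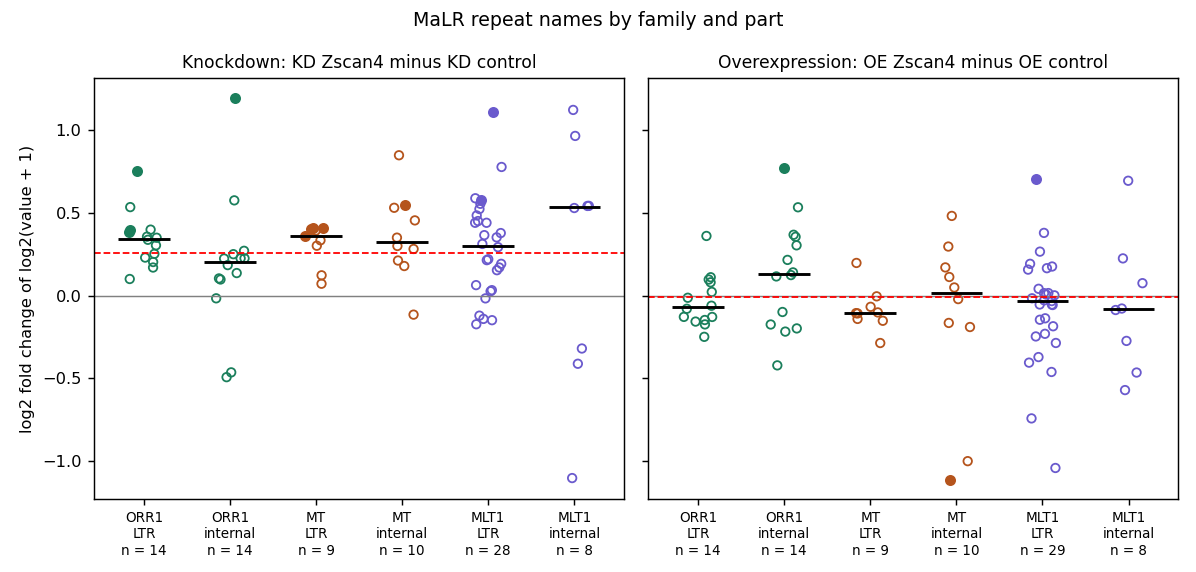
Log2 fold change of each MaLR name (points) by family and by LTR or internal part, in the knockdown (left) and the overexpression (right). Filled points are names with a limma adjusted p under 0.05, black bars are medians of the names, and the red dashed line is the median of all repeat names, at 0.26 in the knockdown and -0.0078 in the overexpression. In the knockdown 5 of the 6 bars lie above the red line, at 0.30 to 0.54, and that of ORR1 internal regions lies below it at 0.21, and in the overexpression ORR1 internal regions (median 0.13) lie above ORR1 LTRs (-0.070).

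ORR1A1, an LTR of a young ORR1 subfamily, had signals of 187 and 198 in KD control and 318 and 334 in KD Zscan4. It rose by 0.76 on the log2 scale (SE 0.14, limma adjusted p = 0.0011), and both Zscan4 libraries lay well above both controls. ORR1C2-int, an internal region with few reads, went from 36.8 and 29.3 to 77.0 and 76.4. Its rise of 1.20 (SE 0.24, limma adjusted p = 0.0024) was the largest among MaLR names that passed in the knockdown. MLT1C, the name with the most reads in the old family, went from 576 and 606 to 842 and 924, with no overlap of the groups, and rose by 0.58 (SE 0.12, limma adjusted p = 0.0030). Without KD control replicate 1 the adjusted p was 0.057 for ORR1A1 and 0.12 for MLT1C, and without KD control replicate 2 it was 0.055 for ORR1C2-int and 0.13 for MLT1C.

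The other 8 rises were smaller or nearer to the threshold. The MT LTRs MTC (0.41), MTE2a (0.41), MTEa (0.40) and MTD (0.36) rose with limma adjusted p-values of 0.021 to 0.037. MTE-int went from 168 and 171 to 242 and 255, a rise of 0.55 (limma adjusted p = 0.024). The ORR1 LTRs ORR1A2 (0.40) and ORR1E (0.38) and the old LTR MLT1H1 (1.11, from 21.5 and 13.5 to 37.5 and 38.7) also passed. In each of these 11 names both KD Zscan4 libraries were above both controls, as was the case for 48.2% of all names. The calls came from the same values, so this separation adds no support to them. All 8 calls were lost without KD control replicate 2, and 7 of them, all but that of MLT1H1, without KD control replicate 1.

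These rises were relative to gene reads and depended on the scaling. With TMM factors computed over repeat names, which set the median of all names at 0.011, 2 MaLR names rose and 2 fell, where 0.391% of all names rose and 4.04% fell. ORR1A1 (0.50) and ORR1C2-int (0.95) still rose. ORR1A3-int (-0.72) and MTA_Mm-int (-0.37), both internal regions, fell. With factors set on old repeats of other classes, 2 rose and 3 fell, the third fall being MLT1G1 (-0.48), where 0.391% of all names rose and 5.61% fell. MLT1C, at 0.32 with TMM (limma adjusted p = 0.053), and the other 8 rises were not called under either of these scalings.

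ORR1A3-int was the clearest of the internal regions that stood below the rest in the knockdown. Its signal was 291 and 346 in KD control and 207 and 255 in KD Zscan4, with no overlap. The log2 fold change with the deposited scaling was -0.46 (SE 0.15, limma adjusted p = 0.052), just outside the threshold, while all 14 ORR1 LTRs were positive, at 0.10 to 0.76. MTA_Mm-int, the internal region of the youngest MT subfamily and the MaLR name with the most reads in that table, was at 2698 and 2602 in KD control and 2241 and 2674 in KD Zscan4 (-0.11, limma adjusted p = 0.52), and the groups overlapped. ORR1A0-int stood at 818 and 807 against 798 and 1002 (0.14, limma adjusted p = 0.49), again overlapping. Of the other ORR1 internal regions with a mean of at least 20, ORR1D2-int (-0.49) and ORR1B2-int (-0.016) were negative and the rest lay between 0.10 and 0.58 beside ORR1C2-int, none of them called.

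In the overexpression, 2 of 84 MaLR names rose and 1 fell, where 2.52% of all 834 names rose and 1.32% fell. The libraries of the 2 groups did not overlap, in either direction, for 29 MaLR names, against 37.4% of all names. The median log2 fold change was -0.053 over MaLR names, -0.0078 over all names and -0.046 over 84 old names of other classes. By family it was 0.0055 for ORR1, -0.10 for MT and -0.053 for MLT1, and by part -0.058 for 52 LTRs and 0.063 for 32 internal regions. Leaving out OE control replicate 1 moved the family medians to -0.17, -0.22 and -0.28, and leaving out OE control replicate 2 to 0.18, 0.10 and 0.15, so their sign rested on which control library was kept.

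ORR1A3-int, the internal region that was low in the knockdown, was at 241 and 305 in OE control and at 477 and 451 in OE Zscan4. It rose by 0.77 on the log2 scale (SE 0.22, limma adjusted p = 0.017), with both Zscan4 libraries far above both controls. Its own LTR, ORR1A3, was at 313 and 399 in OE control and 295 and 300 in OE Zscan4 (-0.25, limma adjusted p = 0.82), so LTR and internal region of this subfamily did not move together. MLT1C went from 515 and 611 to 882 and 953 and rose by 0.71 (SE 0.21, limma adjusted p = 0.026), as it had in the knockdown. MTEb-int, an internal region of the oldest MT subfamily group, went from 101 and 78.0 to 41.5 and 39.4 and fell by 1.11 (SE 0.28, limma adjusted p = 0.0035), with no overlap. Without either OE Zscan4 library none of the 3 was called: the adjusted p then lay at 1.0 for ORR1A3-int and MLT1C and at 0.62 or 0.85 for MTEb-int. With total gene reads as library size the calls of ORR1A3-int (0.63) and MLT1C (0.57) were also lost, and with the replicate block that of MLT1C.

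Of the 32 internal regions, 6 were higher in OE Zscan4 without overlap and 5 were lower. Among all 834 repeat names 167 were higher and 145 lower in this way, so these counts were near the background. Apart from ORR1A3-int and MTEb-int, none of these internal regions passed. On the lower side, MTE2a-int, with few reads, was at 28.7 and 53.3 in OE control and 14.9 and 24.4 in OE Zscan4 (limma adjusted p = 0.094). MLT1A0-int (-0.57), MLT1F2-int (-0.46) and ORR1C1-int (-0.42) were also lower. The higher side included MTE2b-int (0.30) and the 4 names that follow. MTA_Mm-int was at 2107 and 2417 in OE control and 3111 and 3199 in OE Zscan4 (0.48, limma adjusted p = 0.25). ORR1A0-int was at 811 and 903 against 1255 and 1226 (0.54, limma adjusted p = 0.15). ORR1A2-int (452 and 601 against 697 and 651) and ORR1A1-int (194 and 210 against 270 and 249) had log2 fold changes of 0.37 and 0.36, with no overlap either. With TMM factors over repeat names, 8 MaLR names rose and 3 fell, where 8.87% of all names rose and 3.48% fell. Of the 8, 5 were internal regions: ORR1A3-int (0.79), ORR1A0-int (0.55), MTA_Mm-int (0.50), ORR1A1-int and ORR1A2-int. The LTRs among them were MTA_Mm, ORR1A0 and MLT1C, and the falls were MLT1A1, MTEa (-0.27) and MTEb-int (-1.09).

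**Figure D2:**
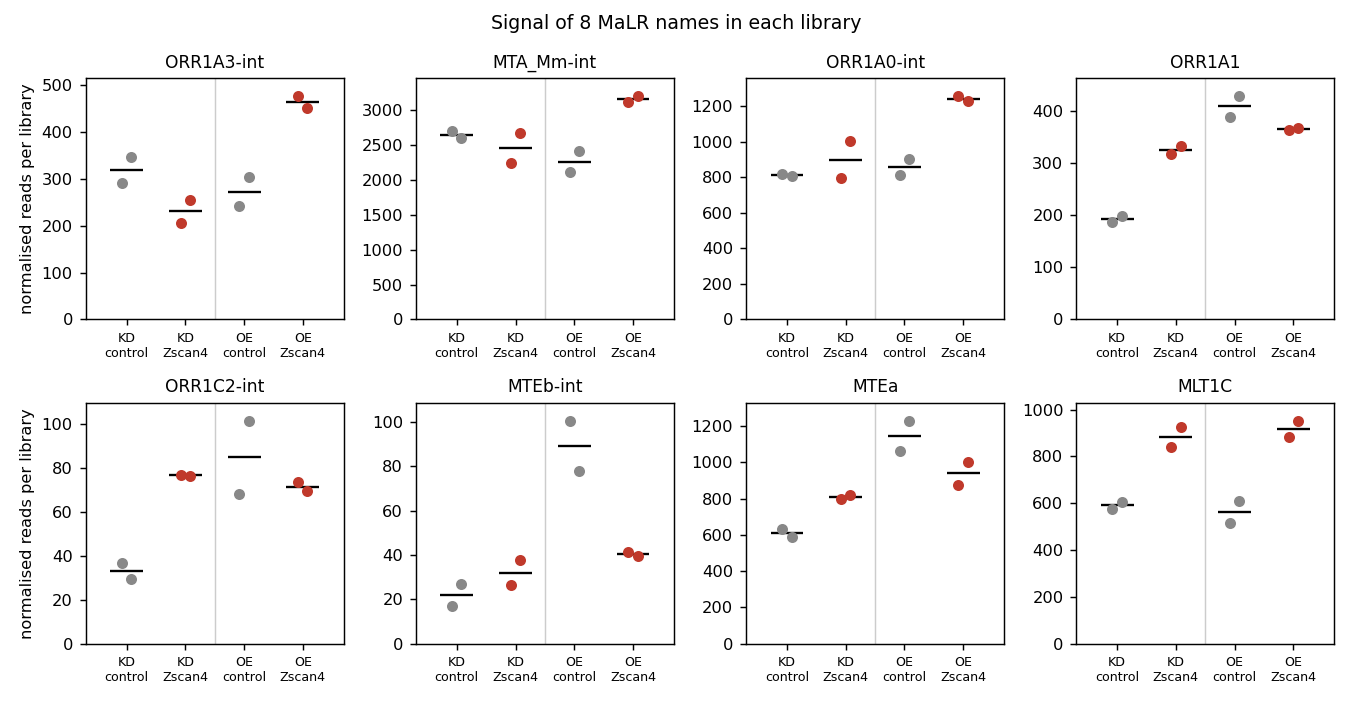
Normalised signal (authors' normalised reads, linear axis from 0) of 8 MaLR names in each of the 8 libraries, in grey for control and red for Zscan4, with black bars at the group means (n = 2 each). ORR1A3-int is lower in KD Zscan4 and higher in OE Zscan4 than in its control, MLT1C is higher in both Zscan4 groups, and the controls of the 2 arms, which were normalised apart, lie at different levels in ORR1A1, ORR1C2-int, MTEb-int and MTEa.

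The ratio of internal to LTR reads of a subfamily within 1 library does not depend on the scaling, nor on a shift of all repeats by the same factor. Reads inside genes may add to LTRs and internal regions unequally, and their part in the ratio was not tested. The ratio was taken wherever both parts were listed and the internal region had at least 80 reads over the 4 libraries of an arm. This held in 22 MaLR subfamilies in the knockdown and 23 in the overexpression. With 2 libraries against 2, an exact permutation test cannot give a two-sided p below 0.333, so separation is described and not tested.

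In ORR1A3 the internal to LTR ratio was 1.41 and 1.72 in KD control and 1.06 and 1.05 in KD Zscan4, a fold of 0.675. In the overexpression arm it was 0.771 and 0.763 in OE control and 1.617 and 1.503 in OE Zscan4, a fold of 2.03. Neither pair of groups overlapped, and the ratio was high in KD control and OE Zscan4, the groups of each arm with more Zscan4c. ORR1A1 had ratios of 1.07 and 0.795 against 0.484 and 0.701 in the knockdown (0.632-fold), and of 0.499 and 0.490 against 0.741 and 0.674 in the overexpression (1.43-fold). MTA_Mm had 1.57 and 1.55 against 1.37 and 1.37 in the knockdown (0.878-fold), and 1.22 and 1.12 against 1.41 and 1.44 in the overexpression (1.22-fold). Both subfamilies were separated in both arms, lower in KD Zscan4 and higher in OE Zscan4, as ORR1A3 was. The parts behind the lower knockdown ratio differed. In ORR1A1 the LTR was at 0.76 and the internal region at 0.098 on the log2 scale, the latter with overlapping groups. In ORR1A3 the LTR was at 0.10 and the internal region at -0.46. How often other names showed this order in both arms was not counted.

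ORR1B1 showed the same order with smaller folds, 0.387 and 0.409 against 0.361 and 0.371 in the knockdown and 0.294 and 0.306 against 0.349 and 0.350 in the overexpression. ORR1A0 did so only barely, at 2.26 and 2.43 against 1.83 and 2.26 in the knockdown, where the groups touched, and at 2.17 and 2.17 against 2.56 and 2.34 in the overexpression. ORR1A2 was separated in the overexpression (0.317 and 0.366 against 0.513 and 0.480, 1.46-fold) and overlapped in the knockdown (0.519 and 0.751 against 0.530 and 0.580). ORR1A4 overlapped in both arms. ORR1C2 went the other way, with 0.0740 and 0.0563 against 0.150 and 0.110 in the knockdown (1.99-fold) and 0.102 and 0.111 against 0.0895 and 0.0908 in the overexpression (0.845-fold).

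Counted over subfamilies, the ratio was lower in KD Zscan4 without overlap in 6 of 22 and higher in 2, where 27.3% and 12.1% of the 33 repeat names of all kinds with both parts were. In the overexpression it was higher in 12 of 23 and lower in 6, where 35.3% and 32.4% of 34 were. These counts include the MaLR subfamilies themselves, which make up most of the names with both parts, and the knockdown count of lower ratios was at the background. In the overexpression all 12 higher names and 6 of the 11 lower names were MaLR, so the 35.3% was made of MaLR subfamilies alone. In the knockdown 6 of the 9 lower and 2 of the 4 higher names were MaLR. Among the 13 ORR1 subfamilies, 4 were lower and 1 higher in the knockdown, and 8 were higher and 3 lower in the overexpression. MT subfamilies gave 2 lower and 1 higher of 8 in the knockdown, and 4 higher and 2 lower of 9 in the overexpression. MLT1F2 was the only MLT1 subfamily with enough reads, so old and young families cannot be compared in this ratio by subfamily.

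Summed over a family, the ORR1 internal to LTR ratio was 0.417 and 0.435 in KD control and 0.362 and 0.390 in KD Zscan4, and 0.305 and 0.304 in OE control and 0.392 and 0.391 in OE Zscan4. These were folds of 0.882 and 1.29, with no overlap in either arm, and without the internal region (ORR1A0-int) and the LTR with the most reads they were 0.881 and 1.20. For MT the folds were 0.819 and 1.27, but neither held without the MT internal region and LTR with the most reads, MTA_Mm-int and MTD, where they were 1.05 and 0.981. MLT1 internal reads were few, with ratios of 0.0303 and 0.0353 against 0.0292 and 0.0254 in the knockdown and 0.0342 and 0.0355 against 0.0251 and 0.0317 in the overexpression. Both MLT1 folds (0.832 and 0.810) were below 1, where ORR1 and MT lay on either side of it, and neither kept its size without MLT1F2-int and MLT1C, the internal region and LTR with the most reads (1.09 and 0.985).

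**Figure D3:**
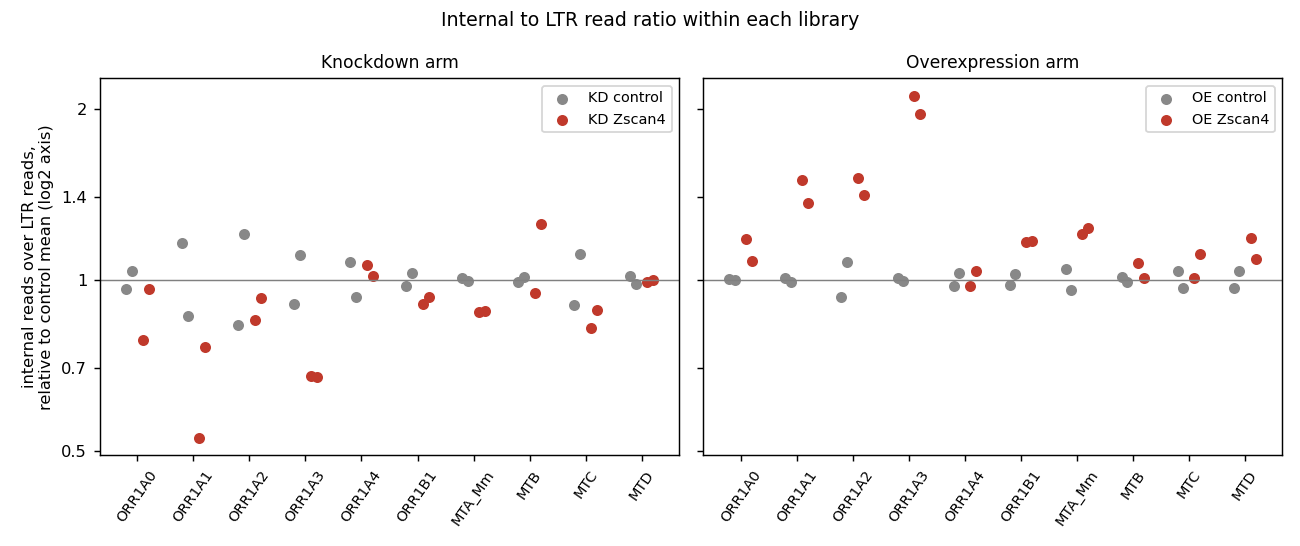
Internal to LTR read ratio of 6 ORR1 and 4 MT subfamilies in each library, divided by the geometric mean of the 2 control libraries of its arm, on a log2 axis (knockdown left, overexpression right). In ORR1A3, ORR1A1 and MTA_Mm the red Zscan4 points lie below the grey control points in the knockdown and above them in the overexpression, while ORR1A4 points overlap in both. The subfamilies are a selection from 22 in the knockdown and 23 in the overexpression. Those separated the other way are not shown: ORR1C2 and MTE2b in the knockdown, and ORR1C1, ORR1C2, ORR1D2, MTE2a, MTEb and MLT1F2 in the overexpression.

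Relative to old repeats of other classes, MaLR reads overlapped between the groups of the knockdown, with ratios of 1.80 and 1.76 against 1.75 and 1.79. In the overexpression the ratio was 1.68 and 1.68 in OE control and 1.84 and 1.85 in OE Zscan4, a fold of 1.097 with no overlap. ORR1 to MLT1 ratios overlapped in the overexpression (3.11 and 3.13 against 3.27 and 3.11), and MT to MLT1 ratios differed by a fold of 1.01 (3.35 and 3.33 against 3.37 and 3.39). For LTRs alone both ratios were lower in OE Zscan4 without overlap. ORR1 over MLT1 was 2.46 and 2.48 against 2.41 and 2.31 (0.952-fold), and MT over MLT1 was 2.63 and 2.66 against 2.48 and 2.52 (0.946-fold). MLT1C, which rose, is among the MLT1 reads of these ratios. Without the name with the most reads in each family, the folds were 1.12 for MT and 1.13 for ORR1 over MLT1, both without overlap. Without the LTR with the most reads in each family, the LTR folds turned to 1.03 for MT and 1.05 for ORR1, also without overlap.

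The difference between the effects of the 2 arms was tested in 1 fit over the 763 shared names, as the overexpression fold change less that of the knockdown. Of 83 MaLR names 1 had a higher effect in the overexpression and 4 a lower one, where 3.54% and 4.19% of all shared names did. The 5 names together stood against 7.73% of all shared names, so the count was near the background. The arms share no libraries. The positive and negative sides are not centred alike, since the median difference was -0.27 over all shared names and -0.35 over MaLR names. In sign, 42 MaLR names were up in the knockdown and down in the overexpression, 6 the reverse, 29 up in both and 6 down in both. Over all 763 shared names the same counts were 322, 106, 269 and 66, so the first pattern was also the most common there.

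ORR1A3-int was the name with the higher effect in the overexpression, with a difference of 1.24 (SE 0.26, limma adjusted p = 7.2e-05), against the median of the table. MERVL-int, the element that marks the 2-cell-like state, differed by 5.33 and its LTR MT2_Mm by 4.19. MERVL-int itself fell by 2.18 on the log2 scale in the knockdown and rose by 3.16 in the overexpression, while MaLR names ranged from -1.10 to 1.20 and from -1.11 to 0.77. In reads per 1000 MaLR reads, MERVL-int was at 223 and 212 in KD control, 37.1 and 44.2 in KD Zscan4, 24.96 and 22.41 in OE control, and 217 and 196 in OE Zscan4. The controls of the arms thus stood apart in MERVL-int, as they did in the ORR1A3 internal to LTR ratio.

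The 4 names with a lower effect in the overexpression were ORR1C2-int (-1.42, limma adjusted p = 0.0036), MTEb-int (-1.64, limma adjusted p = 0.0036), ORR1A1 (-0.91, limma adjusted p = 0.0080) and MTEa (-0.69, limma adjusted p = 0.037). ORR1C2-int had 36.8 and 29.3 in KD control and 77.0 and 76.4 in KD Zscan4, against 68.0 and 102 in OE control and 73.4 and 69.4 in OE Zscan4. KD control was thus the low group, and the other 3 lay close together. MTEb-int had 17.1 and 27.1 in KD control, 26.3 and 37.7 in KD Zscan4, 101 and 78.0 in OE control and 41.5 and 39.4 in OE Zscan4, so here OE control was the high group. The tables were normalised apart, so these levels are set side by side across the arms without a test. ORR1A3-int and ORR1C2-int were called under all 16 alternatives, while the limma adjusted p of MTEb-int was 0.068 and 0.064 when KD control replicate 1 or KD Zscan4 replicate 2 was left out. That of ORR1A1 was 0.087 and 0.053 in the same cases, and 0.096 and 0.084 without OE Zscan4 replicates 1 and 2. MTEa was lost under 8 of the 16 alternatives: without any 1 of the 6 libraries other than the OE controls, with the replicate block, and with factors from old repeats, where its difference was -0.33. Its limma adjusted p over the alternatives lay between 0.0014 and 0.40.

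MTA_Mm-int had a difference of 0.60 (SE 0.22, limma adjusted p = 0.060), just outside the threshold, and passed with TMM over repeat names (0.87). MLT1C rose in both arms with the deposited scaling, by 0.58 and 0.71, and its difference of 0.13 was not called (limma adjusted p = 0.78). It was called with TMM, with median-of-ratios over repeat names and with factors from old repeats, where the difference reached 0.49 and the limma adjusted p 0.0045, and its rise in the knockdown was lost under the same 3 scalings. None of the 36 shared MLT1 names was called by limma in the difference, and 4 had an unadjusted p under 0.05 (MLT1A1, MLT1J, MLT1K and MLT1N2), where 19.3% of all shared names had. Only MLT1A0, MLT1B, MLT1C, MLT1F2-int, MLT1G1 and MLT1H1 were followed by name under other settings. Of those, MLT1C, MLT1G1 (with factors from old repeats) and MLT1B (without OE control replicate 1) were called. The 4 names with an unadjusted p under 0.05 were not followed there.

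**Figure D4:**
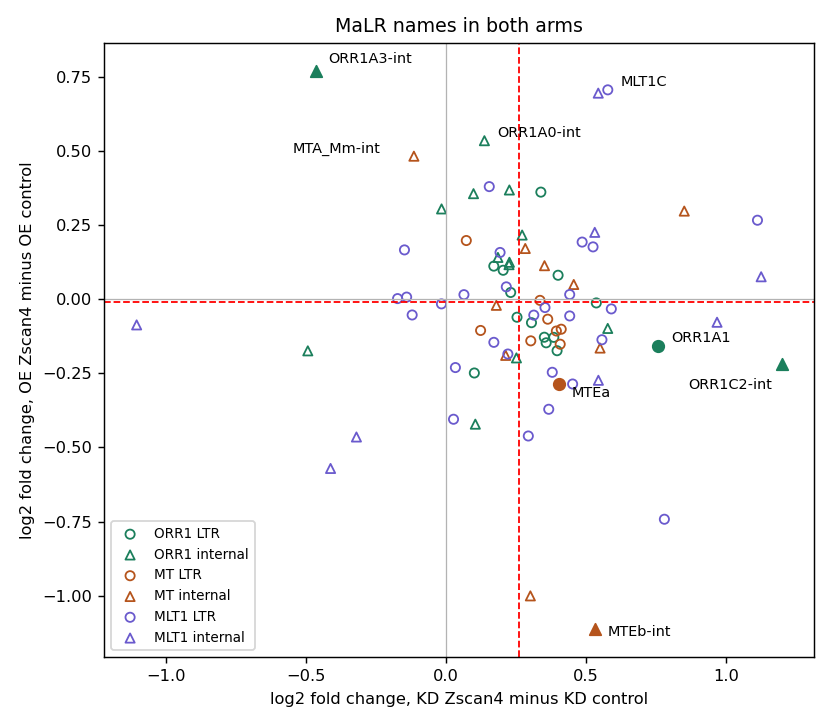
Log2 fold change in the knockdown (x axis) against that in the overexpression (y axis) of the 83 MaLR names in both tables, circles for LTRs and triangles for internal regions. Filled symbols are the 5 names with a limma adjusted p under 0.05 in the difference between the arms, and red dashed lines are the medians of all names of each table. ORR1A3-int lies farthest to the upper left, with -0.46 in the knockdown and 0.77 in the overexpression.

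Genes that silence retrotransposons were measured in the same libraries. Among 30 such genes 15 fell and 3 rose in the knockdown, where 18.5% of 17938 genes fell and 17.2% rose. In the overexpression 15 rose and 1 fell, where 22.3% of 18292 genes rose and 22.1% fell. In the knockdown the median log2 fold change of the list was -0.19, against 0.0078 over all genes, and in the overexpression it was 0.23, against -0.0022. Trim28, the corepressor recruited by KRAB zinc finger proteins, fell by 0.21 in the knockdown (60218 and 62024 against 54110 and 51661, limma adjusted p = 0.0076) and rose by 0.80 in the overexpression (26810 and 26627 against 47725 and 45577, limma adjusted p = 2.1e-07). Setdb1, the histone H3 lysine methyltransferase that works with Trim28, was not called in the knockdown (-0.012) and rose by 0.46 in the overexpression (limma adjusted p = 3.8e-05).

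Kdm1a, a histone demethylase that keeps MERVL silent in ES cells, was not called in either arm (-0.060 and 0.11). Dnmt1, the maintenance DNA methyltransferase, fell by 0.54 in the knockdown and stood at 0.0079 in the overexpression, and Dnmt3l, a cofactor of de novo methylation, fell by 0.71 in the knockdown and stood at 0.085 in the overexpression. Among the pluripotency genes, Pou5f1 was at -0.13 (not called) and Nanog rose by 0.35 in the knockdown, and they rose by 0.53 and 0.48 in the overexpression. Whether any of these genes bears on MaLR reads was not tested. Genes of chromosome 1 had a median log2 fold change of 0.56 in the knockdown (703 genes), while the medians of other autosomes lay between -0.069 and 0.024. In the overexpression the median of chromosome 1 was -0.071 (725 genes), and the medians of other autosomes lay between -0.34 and 0.092. The repeat tables are not split by chromosome, so the part of copies on chromosome 1 or on other chromosomes in the MaLR values was not tested.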

How the data were processed

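RNA-seq was made with an mRNA library kit and 11 PCR cycles, per the labels. The submitters' processing notes name cutadapt, HISAT2, featureCounts and DESeq2, with mm10 as the build and no versions. The handling of reads with many alignments and of strand is not given in the sources used here. The authors deposited normalised signal, per gene and per repeat name, in a pair of tables for each arm. In all libraries 100% of values, multiplied by 1 factor per library, lay within 0.01 of a whole number, and these reads served for ratios and other scalings. Columns were matched to samples by the titles.

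Members and lists were chosen with earlier results of these data known. limma-trend (limma 3.58.1, R 4.3.3) was fitted to log2(value + 1), 2 against 2 libraries, two-sided, with Benjamini-Hochberg adjustment over each whole table at a false discovery rate of 0.05. The plan named edgeR quasi-likelihood for repeats if the tables held raw read counts. It was not run, because the deposited values are normalised and the reads recovered from them were not accepted as raw counts. Of the alternatives, limma-voom used the recovered reads of the repeat names. DESeq2 1.42.0 was run on gene reads only, and TMM factors came from edgeR 4.0.16. The procedure was tested on simulated data. The plan was to name up to 10 called rises and falls per arm and the 3 names with the most reads per family. It also covered internal regions with a mean of at least 20. MERVL-int, MT2_Mm, Zscan4c, Trim28, Setdb1, Kdm1a, Dnmt1, Dnmt3l, Pou5f1 and Nanog were to be named whatever their result. Not all of the planned high-read names and internal regions are given with values. Those given, and other names, were chosen after their values were seen. Alternatives were other scalings, pseudocounts of 0.5 and 8, a mean of at least 10, a replicate block, limma-voom, 1 fit of all 8 libraries and leaving out each library. Scaling on old repeats of other classes was added after seeing the data.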

Additional observations from a re-analysis of the deposited data

Results flagged for a closer look

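The effect of raising Zscan4 differed from that of lowering it in 5 MaLR names, by the limma test of the difference over the 763 shared names, where 7.73% of all of them were called. The overexpression log2 fold change less that of the knockdown was 1.24 for ORR1A3-int, -1.42 for ORR1C2-int, -1.64 for MTEb-int, -0.91 for ORR1A1 and -0.69 for MTEa, with limma adjusted p-values of 7.2e-05, 0.0036, 0.0036, 0.0080 and 0.037. Of these, ORR1A3-int was the only one with the sign of MERVL-int (5.33). Over 16 alternatives, the calls of ORR1A3-int and ORR1C2-int were kept, while MTEb-int was lost under 2, ORR1A1 under 4 and MTEa under 8.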

How the results depend on the processing

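Counts of called MaLR names moved with the scaling and with single libraries, and calls over all names moved with the scaling too. In the knockdown 6.00% of all names rose and 2.87% fell, against 0.391% and 4.04% with TMM and 0.391% and 5.61% with old repeats. In the overexpression 2.52% rose and 1.32% fell, against 8.87% and 3.48% with TMM. Calls over all names were not counted under the other settings, so most MaLR counts below have no share beside them. From 11 in the knockdown, the count went to 4 with TMM over repeat names, 4 with median-of-ratios over repeat names, 6 with gene totals, 5 with factors from old repeats, 5 in the fit of all 8 libraries, and 1 to 27 without 1 library. From 3 in the overexpression it went to 11, 12, 1, 11 and 5 in the same order, and 0 to 30 without 1 library, with 0 calls without either OE Zscan4 library. From 5 in the difference it went to 9, 10 and 10 with TMM, median-of-ratios and old repeats, and 2 to 26 without 1 library. A group left with 1 library is assumed to vary like the other. With the replicate block 3, 2 and 4 names were called. The labels state no shared batch behind the numbers, and same-numbered deviations correlated at 0.012 (knockdown) and -0.016 (overexpression) over names.

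Knockdown medians of ORR1, MT and MLT1 were -0.013, 0.098 and 0.080 with TMM, -0.017, 0.093 and 0.076 with median-of-ratios, and -0.069, 0.042 and 0.024 with old repeats. Without 1 library they ranged from 0.17 to 0.37, 0.28 to 0.42 and 0.24 to 0.36, and in the overexpression from -0.17 to 0.18, -0.22 to 0.10 and -0.28 to 0.15. Without the name with the most reads of each family (for internal over LTR, of each part), log2 ratios in the knockdown were 0.12 (MT over MLT1, turned), 0.075 (ORR1 over MLT1), 0.087 and 0.13 (the same for LTRs), 0.067 (MT internal over LTR, turned) and 0.12 (MLT1 internal over LTR, turned). In the overexpression they were 0.17, 0.18, 0.049 (turned), 0.074 (turned), -0.027 (turned) and -0.022, and 0.27 for ORR1 internal over LTR. MLT1B, not called in the overexpression, was called at -0.31 and 0.26 without OE control replicates 1 and 2 (limma adjusted p = 0.0031 and 0.019). The cause of these changes was not tested. No call of 11 in the knockdown and none of 3 in the overexpression was kept under all 14 alternatives, and 2 of 5 were kept under all 16 in the difference. Names with few reads, such as MLT1 internal regions, limit what can be seen at this depth.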
